A study of Saccharomyces cerevisiae with 22 samples.

Results

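Small nucleolar RNAs (snoRNAs) of budding yeast were examined in total RNA of strains with different numbers of ribosomal DNA (rDNA) repeats, the tandem copies of the rRNA genes. The members were chosen by row name: snR followed by a number and at most 1 lower-case letter, with or without the ending that marks a noncoding exon, leaving out the spliceosomal RNAs snR6, snR7, snR14 and snR19. This gave 117 of 18222 rows in the total RNA tables, 75 gene rows and 42 noncoding exon rows, for 75 snoRNAs. The 10 strains carried 72, 84, 118, 129, 147, 156, 197, 208, 224 and 237 rDNA repeats. All of them were haploid MATa cells of the genotype MATa his3d1 lyp1d0 can1d::STE2pr-spHIS5, in which an STE2 promoter drives spHIS5 at the CAN1 locus, and no other agent or treatment is labelled. Each repeat number was 1 strain with 1 library from 1 culture, made without polyA selection, so that strain, culture and library cannot be told apart. In RNA of whole cultures, less of an RNA per cell and fewer cells that hold it cannot be told apart either. The 12 libraries of polyA-selected RNA in the series list no snoRNA row and were not used.

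The guide snoRNAs fall into 2 families. Box C/D snoRNAs hold a C box and a D box, bind Nop1, Nop56, Nop58 and Snu13, and pair with rRNA just upstream of the D box or of an internal copy of it (D′), where Nop1 methylates the ribose. Box H/ACA snoRNAs fold into hairpins followed by an H box and an ACA tail, bind Cbf5, Gar1, Nhp2 and Nop10, and hold a uridine of the rRNA in a pocket where Cbf5 converts it to pseudouridine. A few members, such as U3 (snR17a and snR17b), U14 (snR128), snR30 and snR10, are needed for cleavage of the rRNA precursor. In yeast most snoRNAs are transcribed from genes of their own, some from polycistronic clusters, and a few are cut from introns.

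Of the 75 snoRNAs, 46 were box C/D and 29 were box H/ACA. The sequences of 7 members, read on the RNA strand from the RefSeq R64 genome, show the parts on which the families rest and the contrast in levels described further on. In the box C/D members below, capitals mark the antisense stretch and the CTGA that it precedes, which is the D box in 4 of them and in snR62 the internal copy of that box (D′), at base 41 of 100. They are snR40 (chrXIV:89210-89306, plus strand), the only box C/D member of at most 110 bases with a mean of 20 reads or more, snR63 (chrIV:323217-323471, minus strand), a long one, and 3 short ones that were nearly absent from the libraries, snR62 (chrXV:409765-409864, minus strand), snR39 (chrVII:365163-365251, minus strand) and snR59 (chrXVI:173827-173904, plus strand).
snR40: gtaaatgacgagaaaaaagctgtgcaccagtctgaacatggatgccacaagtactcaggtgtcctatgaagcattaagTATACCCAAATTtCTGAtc
snR63: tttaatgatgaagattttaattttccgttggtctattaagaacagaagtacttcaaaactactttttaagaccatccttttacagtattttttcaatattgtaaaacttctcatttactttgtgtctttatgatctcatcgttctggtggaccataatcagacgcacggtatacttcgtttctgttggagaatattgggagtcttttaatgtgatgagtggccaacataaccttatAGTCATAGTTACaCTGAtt
snR62: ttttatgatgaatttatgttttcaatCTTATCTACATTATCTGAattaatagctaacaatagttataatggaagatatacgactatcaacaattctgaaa
snR39: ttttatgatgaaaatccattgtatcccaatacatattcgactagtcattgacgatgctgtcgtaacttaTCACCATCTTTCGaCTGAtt
snR59: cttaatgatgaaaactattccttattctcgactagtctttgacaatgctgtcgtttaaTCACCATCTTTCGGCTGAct
In the following 2 box H/ACA members capitals mark the tail triplet. They are snR3 (chrX:663749-663942, plus strand), the member with the largest variance relative to read counting, and snR32 (chrVIII:381540-381727, plus strand), one of similar length with the usual ACA.
snR3: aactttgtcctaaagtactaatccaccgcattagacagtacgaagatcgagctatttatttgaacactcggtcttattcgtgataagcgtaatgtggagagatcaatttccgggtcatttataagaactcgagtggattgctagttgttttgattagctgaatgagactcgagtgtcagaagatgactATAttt
snR32: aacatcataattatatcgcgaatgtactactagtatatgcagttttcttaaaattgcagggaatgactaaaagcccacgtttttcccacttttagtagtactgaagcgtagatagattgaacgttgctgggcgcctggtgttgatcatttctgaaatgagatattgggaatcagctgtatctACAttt

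The capital stretch of snR40 pairs over 12 bases with 25S rRNA so that the base paired 5 bases upstream of CTGA is position 898. Those of snR63 and snR62 pair over 12 and 14 bases and place positions 2256 and 1888 of 25S rRNA there. The stretches of snR39 and snR59, which lie in introns of the paralogous ribosomal protein genes RPL7A and RPL7B, pair over 13 and 14 bases and both place position 807 of 25S rRNA. All 5 positions are methylation sites in the RefSeq notes. Over the family, an exact duplex of at least 9 bases with 18S or 25S rRNA that covers this base was found in 28 of 46 box C/D members, at a position given by RefSeq in 26 of them. The letters CTGA lay in the last 15 bases of 44 of 46 box C/D members and of 1 of 29 box H/ACA members, and TGATGA in the first 15 bases of 35 of 46 and of 1 of 29. The triplet that ends 3 bases before the 3′ end was ACA in 14 of 29 box H/ACA members and ATA in 4. These matches, on the RNA strand only, describe the annotated sequences and were not measured in the libraries.

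The deposited values are whole counts, taken here as reads, divided by a size factor of the library. They are called normalised counts here. The libraries held 6495626 to 7934346 reads at all rows, of which 377986 to 465645 lay outside the rDNA. Genes of the MATa mating type were present at means between 6.33 (ASG7) and 210 (STE2) normalised counts, and of the alpha-specific genes MF(ALPHA)2 was at 0, MF(ALPHA)1 at 0.1, STE3 at 2.17 and SAG1 at 14.6. Of the loci that the genotype alters, LYP1 had a mean of 0.596 normalised counts and HIS3, labelled with the allele his3d1, one of 26.8. CAN1 had 24.19 to 35.2 in every library, which goes against its label as deleted, and the source of these reads was not tested. In the snoRNA values the libraries with 208 and 129 repeats stood apart from the other libraries. The spread between strains and the counts of slope signs are given with and without 1 or both of them.

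snoRNA rows held 104754 reads in the 10 libraries. Their share of the reads outside the rDNA was 2.41%, 2.32%, 2.48%, 2.81%, 2.52%, 2.48%, 2.19%, 2.72%, 2.17% and 2.23% in the strains with 72 to 237 repeats, in that order. The mean was 2.43% ± 0.216 (SD, n = 10). The highest shares were those of the strains with 129 and 208 repeats, and the lowest those with 224, 197 and 237. In each of the 3 series of strain names that hold 3 strains, CGY24, CGY20 and CGY28, the strain of middle array length (129, 147 and 208 repeats) had the highest share. In CGY20 the counting intervals at 147 and 118 repeats overlapped (2.48% to 2.57% and 2.43% to 2.53%). The strains with 129 and 208 repeats are those whose libraries stood apart. Series CGY29 is the strain with 84 repeats alone.

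A few long snoRNAs made up most of the signal. Where both rows of a snoRNA are listed, its level is their sum. snR17a (chrXV:780107-780596), the main copy of U3, a box C/D snoRNA that pairs with the 5′ part of the rRNA precursor and nucleates the small subunit processome, averaged 2540 ± 222 normalised counts (SD, n = 10), from 2182 in the strain with 197 repeats to 2929 in the strain with 208. The other copy, snR17b (chrXVI:281056-281517), averaged 674 ± 65.3 and lay between 593 and 792. Together both copies took 31.2% of all snoRNA reads. The ratio of snR17a over snR17b was 3.78 ± 0.293 and stayed between 3.35 and 4.26 over the 10 strains. The copies are close in sequence, so the split between them depends on how the authors' counting assigned shared reads. The U3 genes hold introns, and the intron rows of both copies, which the naming rule leaves out, had 0 reads in all libraries.

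snR30 (chrXII:198784-199389), a box H/ACA snoRNA needed for the cleavages that release the 18S rRNA precursor, followed with 1172 ± 135 normalised counts (945 to 1404). snR83 and snR86, which guide pseudouridylation of 18S and 25S rRNA, averaged 728 ± 101 and 658 ± 126. These 3 members and both U3 copies held 56.0% of all snoRNA reads. The other cleavage snoRNAs were U14 (snR128, chrX:139566-139691) with 426 ± 102 normalised counts and snR10 (chrVII:345986-346230), which also guides a pseudouridine of 25S rRNA, with 115 ± 22.3. A joint row of snR10 and the overlapping frame YGL088W held another 111 ± 13.7, so the level of snR10 depends on how those reads are assigned. snR4 and snR45, box C/D snoRNAs that guide acetylation of cytidines in 18S rRNA, averaged 226 ± 32.9 and 101 ± 23.6.

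Per 100 bases of annotated length, the order changed. snR17a led with 518 normalised counts per 100 bases, a value that its intron, part of the annotated span, makes too low. U14 came next with 338 per 100 bases, then snR190, its partner in a bicistronic transcript, with 257, snR83 with 238 and snR30 with 193. snR40 had 190 per 100 bases, close to snR30. snR86, whose annotated span of 1004 bases is the longest, had 65.6 per 100 bases and dropped out of the leading group.

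Length separated detected from undetected members. Of the 35 box C/D snoRNAs of at most 110 bases, snR40 with 97 bases was alone in reaching a mean of 20 reads. It had 157, 209, 148, 150, 181, 186, 137, 367, 136 and 172 normalised counts in the strains with 72 to 237 repeats. The library with 208 repeats was the highest by far and the other libraries lay between 136 and 209. Among the other 34 short members the highest mean was 11.2 ± 6.31 normalised counts (snR55), and all 34 together held 0.474% of the snoRNA reads. Of the longer box C/D members, 8 of 11 reached a mean of 20 reads, as did 26 of the 29 box H/ACA members. The shortest box H/ACA member has 161 bases, so that family and length cannot be told apart below 110 bases.

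**Figure D1:**
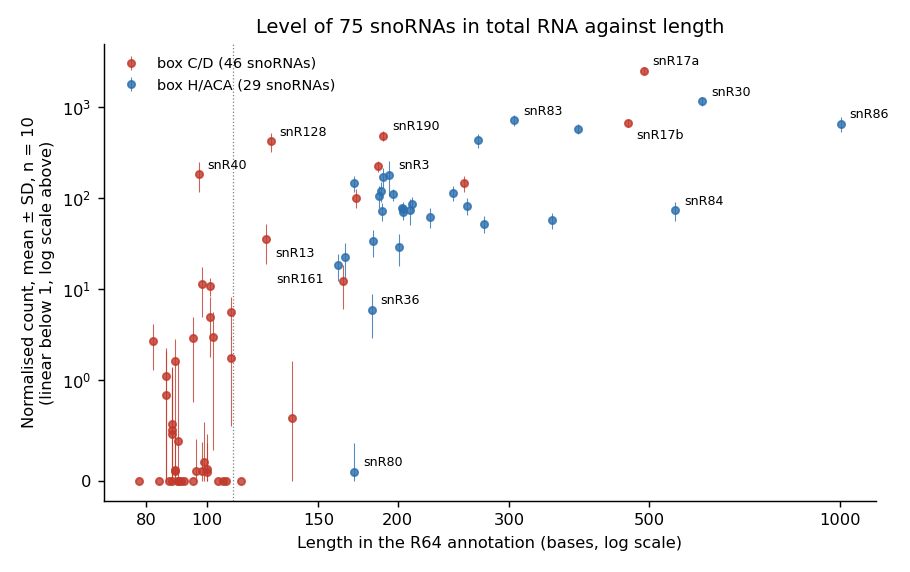
Mean normalised count of each of 75 snoRNAs over 10 total RNA libraries (points) with the SD (bars) against annotated length, box C/D in red and box H/ACA in blue; the dotted line stands at 110 bases. The vertical axis is linear below 1 and logarithmic above. Left of the line only snR40 lies above 20 normalised counts, and U3 (snR17a) is highest at 2540.

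In 13 snoRNAs no library held a read at the snoRNA's own rows, which over 4302868 reads outside the rDNA allows a share of up to 6.97e-05% (3 reads, counting error only). They were snR38, snR48, snR50, snR51, snR52, snR53, snR57, snR59, snR60, snR61, snR73, snR78 and snR79, all of them box C/D and all but snR48 (113 bases) at most 110 bases long. For 3 of them joint rows outside the naming rule held reads in the 10 libraries, 32 for snR55 with snR57, 17 for snR73 with YMR013W-A and 6 for snR51 with snR70, and that limit does not cover them. A count of 0 describes these libraries and not the presence of the RNA in the cells. A further 27 snoRNAs had reads but a mean under 20, 20 of them under 5. The 3 box H/ACA members below 20 were snR161 with 18.4 ± 6.11, snR36 with 5.90 ± 3.01 and snR80 with a single read in the strain with 84 repeats. Whether fragment length or the recovery of short RNAs in library preparation plays a part was not tested.

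Members of polycistronic transcripts were counted well in 1 of the 5 clusters. In the cluster of snR72 to snR78 the 7 members had means between 0 and 5.52 normalised counts, with snR76 highest and snR73 and snR78 without a read of their own, while the joint row of snR73 and YMR013W-A averaged 1.65 ± 1.59. The bicistronic transcript of snR190 and U14 gave 488 ± 58.7 and 426 ± 102. In the transcript of snR57, snR55 and snR61 the middle member had 11.2 and the outer ones no read, while a joint row of snR55 and snR57 had 3.15 ± 1.42. In the transcript of snR41, snR70 and snR51 the longest, snR70 with 164 bases, had 12.2 ± 6.23, snR41 had 2.86 ± 2.08 and snR51 none, with 0.550 ± 0.874 at a joint row of snR51 and snR70. snR67 had 2.68 ± 1.405 and snR53, from the same transcript, none.

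The 8 intronic members showed the same division. The 6 intronic box C/D members have 78 to 102 bases and averaged between 0 and 2.97 normalised counts. Their host genes other than RPL7B averaged 242 to 1160. snR24 had 1.61 normalised counts, against 1160 ± 145 for ASC1, which encodes a ribosome-bound Gβ-like protein. For snR38 no read was found, against 930 ± 90.02 for TEF4, a subunit of elongation factor eEF1B. snR39 had 1 read in all, against 835 ± 42.8 for RPL7A, and snR59 none, against 79.2 ± 14.2 for RPL7B. snR18 had 2.97, against 597 ± 30.2 for EFB1, another eEF1B subunit, and snR54 had 0.846, against 242 ± 22.8 for IMD4, an IMP dehydrogenase. The 2 intronic box H/ACA members were at about the level of their hosts. snR44 (211 bases) had 85.4 ± 17.1, against 59.0 ± 7.55 for RPS22B, and snR191 (274 bases) had 52.1 ± 11.1, against 50.4 ± 7.17 for NOG2, a GTPase of 60S subunit assembly. Normalised counts are not per length here, and reads of unspliced host RNA in an intron cannot be told apart from those of the snoRNA.

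Gene rows and noncoding exon rows share the name of a snoRNA and were taken here as rows of the same RNA. How the authors defined them is not given, and whether they stand for the same RNA was not tested. Reads were mostly listed at the exon row. Of the 42 snoRNAs with both rows, the exon row had the higher mean in 28, the gene row in 12, and 2 had no read in either. Summed over the 42, the log2 ratio of gene row reads over exon row reads was -4.86 ± 0.394 (SD, n = 10 libraries). It was -6.24 without snR190 and snR85, and the median over snoRNAs of reads + 1 gave -3.79. Among the 26 pairs with a mean of at least 20 reads, the exon row held over 90% of the reads in 23, between 93.7% and 100%. For snR83 the gene row had no read in any library, against 728 ± 101 at the exon row. For snR30 the gene row had 14.1 ± 7.22 normalised counts, against 1158 ± 135 at the exon row, and for snR17a 12.8 ± 3.73, against 2528 ± 223.

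Short members had the opposite split on very few reads. In the 13 pairs of at most 110 bases, gene rows held 147 reads in all and exon rows 3. A further 33 snoRNAs had a gene row alone, 9 of them with a mean of at least 20 reads, so that neither kind of row by itself covers the class. Exon rows held 80.4% of all snoRNA reads.

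The 3 abundant pairs outside the rule of over 90% were snR13, snR85 and snR190. snR190 (chrX:139761-139950), a box C/D snoRNA, had 102, 208, 120, 111, 92.9, 0, 0, 0, 173 and 93.5 normalised counts at the gene row in the strains with 72 to 237 repeats. In the same order its exon row had 365, 222, 415, 427, 460, 449, 506, 564, 220 and 354. The gene row was empty in the strains with 156, 197 and 208 repeats, and it came nearest to the exon row in those with 84 and 224. The sum of both rows moved far less, between 393 and 564 with a mean of 488 ± 58.7, so that a reading of the gene row alone would give snR190 as present in 7 strains and absent in 3. The share at its exon row ranged from 51.7% to 100%.

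snR85 (chrXIII:67768-67938), a box H/ACA snoRNA predicted to guide a pseudouridine of 18S rRNA, was the only abundant pair with more reads at the gene row, 98.8 ± 24.08 against 47.7 ± 11.5 normalised counts at the exon row. The exon share stayed between 26.8% and 44.6% in all strains. For snR13 (chrIV:1402919-1403042), which guides methylation of 25S rRNA, the gene row had 5.43 ± 4.12 and the exon row 30.0 ± 17.6. Its exon share lay between 55.0% and 97.5%. The sources used here do not tell how a read that fits both rows was assigned.

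**Figure D2:**
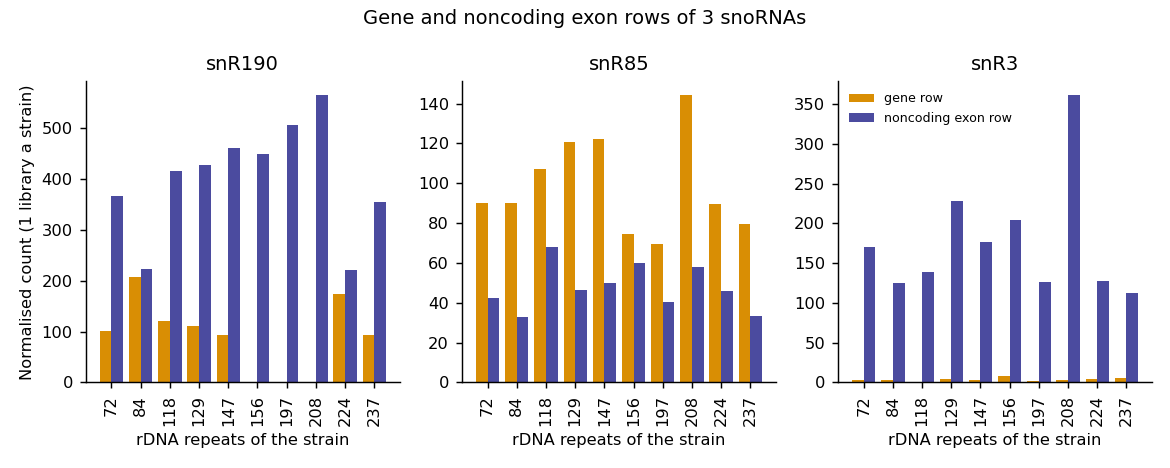
Normalised counts at the gene row (orange) and the noncoding exon row (violet) of snR190, snR85 and snR3 in each of 10 strains, 1 library each, by rDNA repeat number. The gene row of snR190 is empty at 156, 197 and 208 repeats, snR85 has more counts at its gene row throughout, and snR3 is listed almost wholly at its exon row, with its highest value at 208 repeats.

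Levels of snoRNAs were spread more widely between strains than those of other tested RNAs, in good part through 1 library. For the 37 member rows with a mean of at least 20 reads, the median SD of log2(normalised count + 1) over the 10 strains was 0.298, against 0.234 for all 2397 features with such a mean. The variance between strains was a median 5.86 times that of read counting for these rows, against 1.53 times for all such features. Over all 44 member rows that passed the expression filter the median SD was 0.314, against 0.304 for all 4019 features. The ratio to counting grows with abundance, and the 37 rows had a median of 102 reads, against 48.8 for all 2397 features, so that abundance and membership cannot be told apart in it. Without the strain with 208 repeats the median ratio was 3.82 for the 37 rows, against 1.41 for all such features, and the median SD 0.254, against 0.223. Without the strains with 208 and 129 repeats they were 3.27, against 1.39, and 0.234, against 0.220. With both rows summed, 34 of 35 snoRNAs with a mean of at least 20 reads varied by more than 2 times counting, as did 34.9% of all features with such a mean. Without the strain with 208 repeats it was 29 of 35, against 30.0% of the features. Among those with a mean of at least 100 reads it was 20 of 20 snoRNAs, against 68.5% of 654 features. The exception was snR34, a guide of 25S rRNA pseudouridines, at 1.01 times with 77.6 ± 8.71 normalised counts.

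The 4 members with the largest ratio were snR3, at 31.9 times counting, snR40 at 25.6, U14 at 25.01 and snR86 at 23.4. By the SD of log2(normalised count + 1), snR13 (0.633) and snR49 (0.571), both with few reads, came before snR3 (0.507). Without the strain with 208 repeats the ratio was 10.5 for snR3, 3.82 for snR40, 9.77 for U14 and 24.3 for snR86, and without that with 129 repeats it was 15.7 for snR86. snR3, a guide of pseudouridines in 25S rRNA, had 174, 129, 140, 232, 179, 212, 129, 364, 131 and 118 normalised counts in the strains with 72 to 237 repeats. The strain with 208 repeats was highest and that with 129 next, and the other 8 lay between 118 and 212. U14 had 664 normalised counts in the strain with 208 repeats and between 325 and 521 in the others. snR86, in contrast, was highest in the strain with 129 repeats (889) and the one with 156 (843). Its value in the strain with 208 repeats was 569, under its mean of 658.

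The strain with 208 repeats carried much of this spread, and its excess was graded by length. Of the 35 snoRNAs, 31 lay above their own mean log2 level in that strain (52.6% of all 4019 features did), and 22 had their highest value of the 10 strains there (16.1% of all features). Among the 13 shortest, of 97 to 190 bases, 12 were highest there, and the ratio to the median of the other 9 strains ranged from 1.21 to 2.33, with a median of 1.73. Among the 10 of 194 to 245 bases, 7 were highest there, with a median ratio of 1.34. Among the 12 of 255 bases or more, 3 were highest there and the ratios ranged from 0.730 to 1.51, with a median of 1.14.

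The largest ratios were 2.60 for snR3, 2.41 for snR81, 2.33 for snR40 and 2.32 for snR13. snR81 guides pseudouridines in 25S rRNA and in U2 RNA, and had 57.9 normalised counts in the strain with 208 repeats, against 22.0 to 40.1 in the other strains. Ratios under 1 were found for 4 members, all long. They were 0.730 for snR37, 0.807 for snR84, 0.814 for snR42 and 0.918 for snR86. snR37, which guides a pseudouridine of 25S rRNA, had 427 normalised counts in the strain with 208 repeats, against 550 to 675 in the others. Across the 35 snoRNAs, Pearson's r of the log2 deviation in this strain with log2 length was -0.76. This is a description over RNAs of 1 library that share its depth. In the other 9 strains the same r lay between -0.39 (147 repeats) and 0.36 (129 repeats). The median deviation in this strain was 0.66 for the 13 shortest snoRNAs, 0.39 for the 10 of 194 to 245 bases and 0.13 for the longest 12. For the 49 other tested features with an annotated span of under 255 bases, a cut that spans both shorter classes, it was 0.12. An annotated span may differ from the length of the RNA, and the kinds of RNA among these features were not examined. Those features were taken from all that passed the expression filter, so their depth may differ from that of the 35 snoRNAs. What sets this library apart, in the cells or in its preparation, was not tested.

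**Figure D3:**
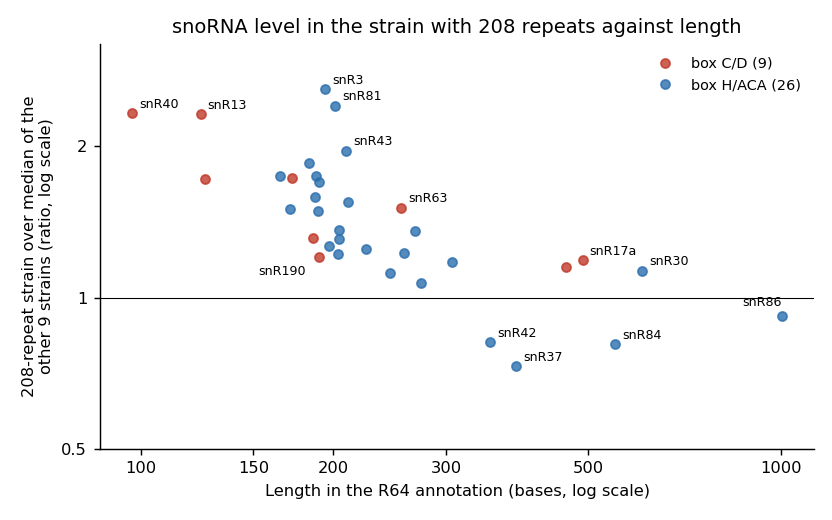
Ratio of the normalised count in the strain with 208 repeats over the median of the other 9 strains (log axis) against annotated length (log axis) for 35 snoRNAs with a mean of at least 20 reads, box C/D in red and box H/ACA in blue. Short members lie up to 2.60 times above the other strains (snR3), and 4 long ones lie below 1 (snR37 lowest, at 0.730).

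The strain with 129 repeats also stood high, without that gradient toward short members. There 34 of 35 snoRNAs lay above their own mean (52.0% of all features), by a median of 0.24 log2 units, and 11 had their highest value (9.28% of all features). The median deviation was 0.15 for the 13 shortest and 0.35 for the 12 longest. snR84, a guide of a 25S rRNA pseudouridine, was highest in this strain with 110 normalised counts over both rows, against 52.8 to 96.7 in the others. In the strains with 197, 224 and 237 repeats, 5, 3 and 5 of the 35 snoRNAs lay above their own mean (51.7%, 52.2% and 53.0% of all features). The strain with 84 repeats was low as well, with 8 of 35 above their own mean (51.8% of all features). The median deviation was -0.15 in that strain, against -0.21, -0.20 and -0.21 in the strains with 197, 224 and 237 repeats. Array length cannot be told apart from strain, culture and library in these values, so no conclusion on it is drawn from them.

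**Figure D4:**
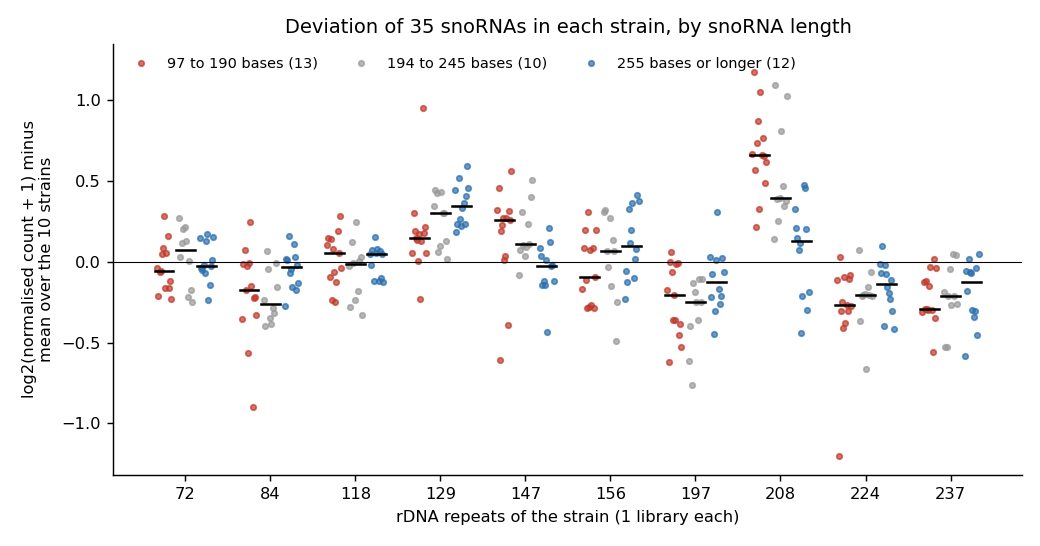
Deviation of log2(normalised count + 1) from the mean over 10 strains for 35 snoRNAs (points) in each strain, 1 library each, by rDNA repeat number. Colours give 3 length classes and black bars their medians. The short class stands highest at 208 repeats (median 0.66). The medians of all 3 classes lie above 0 at 129 repeats and below 0 at 84, 197, 224 and 237.

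The balance of the families shifted little between strains. The log2 ratio of box C/D over box H/ACA counts was -0.15 ± 0.102 (SD, n = 10), and the linear ratio stayed between 0.782, in the strain with 156 repeats, and 0.969, in the strain with 84. Box C/D members held 47.4% of the snoRNA reads and box H/ACA members 52.6%. Most of the box C/D sum is U3, so that the ratio says little about the short guides.

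Array length itself was compared as a linear slope of log2(normalised count + 1) over the 10 strains, given per 100 repeats and fitted with limma over 4019 features. The design asks which RNAs follow the number of rRNA genes. None of the 44 snoRNA rows that passed the filter had an adjusted p under 0.05 (0 of 44), and 1 of all 4019 features did, 0.0249%. Of the 117 rows, 73 did not pass the filter, among them 58 gene rows and 15 exon rows, so the slopes leave out the least counted rows. Of the 44 fitted, 37 had a mean of at least 20 reads. The lowest adjusted p of a member was 0.987. At an unadjusted p under 0.05 there was 1 member row of 44, against 188 of all features (4.68%). edgeR's quasi-likelihood test also called no member row (2 at an unadjusted p under 0.05, 4.63% of all features) and 3 of all features (0.0746%), and DESeq2 called none (0 at an unadjusted p under 0.05, 2.34% of all features) and 2 of all features (0.0498%). In simulated data this fit recovered 70.3% of slopes of 1, 7.58% of slopes of 0.5 and 1.54% of slopes of 0.25 log2 units per 100 repeats. The simulated slopes were placed at random among all tested features, whose median was 26.1 reads, with the same fixed spread for each. Small slopes were thus mostly missed at such a depth. Abundant member rows had small SE, such as 0.065 for the exon row of snR17a and 0.079 for that of snR30. The simulated rates do not describe those rows.

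The 4 member rows with the lowest p among negative slopes were the exon rows of snR84, snR37 and snR31 and the gene row of snR191, none of which passed the test. The slope was -0.31 ± 0.13 (SE) for snR84, with an unadjusted p of 0.0280 and an adjusted p of 0.987 in limma. Its exon row had 67.5, 71.5, 72.0, 107, 68.4, 73.4, 73.6, 58.8, 52.1 and 50.0 normalised counts in the strains with 72 to 237 repeats. The 3 lowest values belong to 3 of the 4 longest arrays, and the highest to the strain with 129 repeats. Without that strain 0 of the 44 member rows, snR84 included, had an unadjusted p under 0.05 in limma. With 1 strain left out, the slope of this row stayed between -0.42 and -0.23. The slopes of the others were -0.16 ± 0.08 for snR37, -0.31 ± 0.17 for snR31, a guide of an 18S rRNA pseudouridine, and -0.19 ± 0.15 for snR191.

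Among positive slopes the lowest p were those of the gene rows of snR30 (0.37 ± 0.26), snR55 (0.36 ± 0.35), snR44 (0.13 ± 0.13) and snR81 (0.18 ± 0.20), again with adjusted p of 0.987 in limma. The gene row of snR30, which holds a small part of its reads, had 33.3 normalised counts in the strain with 237 repeats and between 8.34 and 16.7 in the others, and without that strain its slope was -0.0090. A covariate for strain series gave slopes of -0.29 for snR55 and -0.11 for snR81. The slope of snR81 was -0.0186 without the strain with 208 repeats. The gene row of snR190, empty in 3 strains, had a slope of -2.14 ± 1.90, while its exon row had 0.11 ± 0.27.

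Negative slopes were more frequent than positive ones, 29 against 15 of 44, while 50.2% of all features had a negative slope. The median slope was -0.02 for the member rows and -0.00 for all features. Without the strain with 208 repeats, 39 of 44 member rows had a negative slope, with a median of -0.12, and 5 had an unadjusted p under 0.05 (4.21% of all features). In that fit 50.5% of all features had a negative slope and no member row passed the adjusted threshold. Without the strain with 129 repeats 24 of 44 were negative, with a median of -0.009, and 0 of 44 had an unadjusted p under 0.05 (175 of 3962 features did). In that fit 50.3% of all features had a negative slope. Without the strain with 237 repeats 19 of 44 were negative, with a median of 0.05, and without that with 224 repeats 20 of 44, with a median of 0.03. With strain series as a covariate 32 of 44 were negative, with a median of -0.14. The snoRNA rows move together between libraries, so that these counts are not independent observations.

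**Figure D5:**
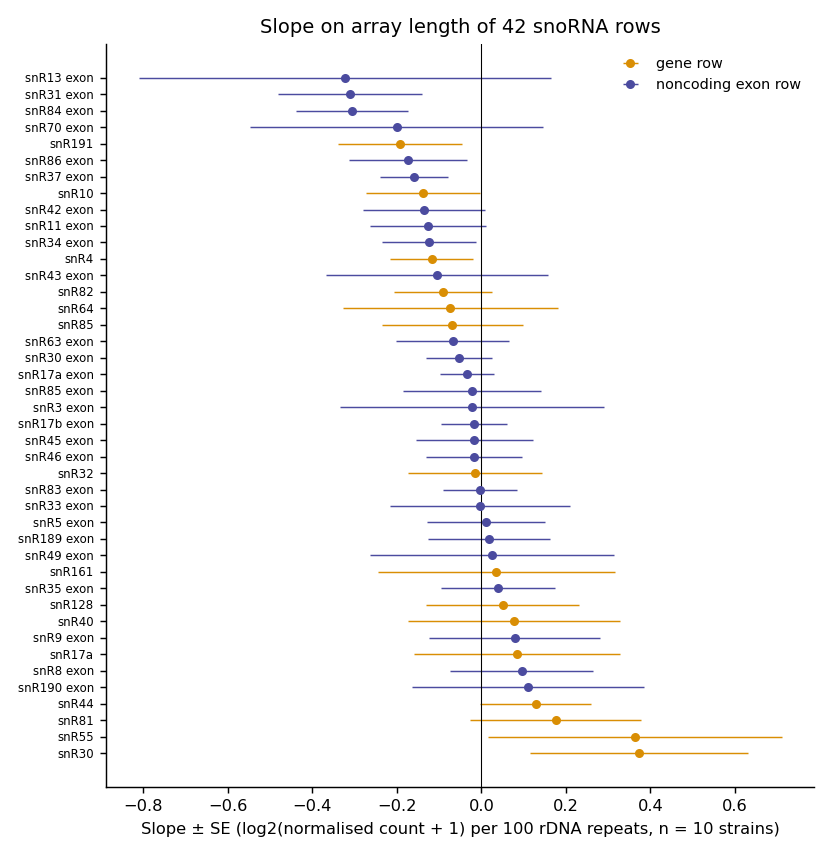
Slope on rDNA repeat number with its SE for 42 of the 44 snoRNA rows tested, in log2(normalised count + 1) per 100 repeats over 10 strains, gene rows in orange and noncoding exon rows in violet. The gene rows of snR190 and snR17b, whose SE is above 0.8, are left out. Slopes lie on both sides of 0 and none passed the test.

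The genes of the proteins that build, process and bind snoRNAs gave no call either. Of 27 genes listed for snoRNA assembly and maturation, 20 passed the filter and 0 had an adjusted p under 0.05 in limma, edgeR or DESeq2. Slopes were positive for 10 and negative for 10, and 3 of 20 had an unadjusted p under 0.05 in limma (4.68% of all features). These were RRP6, the nuclear exosome ribonuclease that trims snoRNA 3′ ends, with -0.47 ± 0.19, NAF1, an assembly factor of box H/ACA particles, with -0.50 ± 0.22, and RVB1, an ATPase of box C/D assembly, with -0.36 ± 0.17. The messengers of the core proteins were present in all libraries, for example that of NOP1, the methyltransferase, with 265 ± 22.3 and that of CBF5, the pseudouridine synthase, with 147 ± 20.4 normalised counts. Their slopes were 0.02 ± 0.08 and 0.02 ± 0.11.

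All 8 host genes of intronic snoRNAs passed the filter and 0 were called by limma, edgeR or DESeq2. The lowest p was that of TEF4, the host of snR38, with a slope of 0.20 ± 0.06, an unadjusted p of 0.00443 and an adjusted p of 0.987 in limma. NOG2, the host of snR191, came next with -0.20 ± 0.13. The slope of snR191 itself was -0.19 ± 0.15, and 0.24 with strain series as a covariate. Slopes were positive for 5 hosts and negative for 3, with a median of 0.01.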

How the data were processed

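Total RNA of 10 strains was sequenced from directional libraries made without polyA selection, per the labels' protocols. Per the submitters' processing notes the authors used bcl2fastq, Salmon 0.8.1 and DESeq2 on sacCer3. The deposited values have the unit signal: read counts that the authors divided by a size factor of the library. All values (100%) came out as whole numbers within 0.001 after division by the library's step, and these are called reads. Whether they are direct tallies or rounded estimates cannot be told from the values. Members, gene lists and tests were chosen with earlier results of these data known. Names, lengths, positions and sequences are those of RefSeq R64, in which all 75 snoRNAs matched.

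Slopes were fitted with limma 3.58.1 (R 4.3.3) on log2(value + 1), which understates changes of low features, with a trend and robust moderation. The fit covered 4019 features passing edgeR's filter (minimum count 10), without 42 rDNA rows, with two-sided p-values adjusted over all of them by the method of Benjamini and Hochberg. With 1 library a strain, p-values rest on the scatter of single libraries about the fitted line. Strain, culture, preparation and counting cannot be told apart in that scatter. Fits with edgeR 4.0.16 and DESeq2 1.42.0 on the recovered reads were alternatives. The fit was tested on simulated data of 3948 features, with 0 false calls. Deviations used members with a mean of at least 20 reads. Named members are the 4 rows of lowest p per direction, the 5 highest and the lowest by level, the 5 highest per length, the 4 most variable, processing snoRNAs, acetylation guides, intronic members, pairs whose rows differ most and the 2 lowest p per list. Python 3.11.15 and pandas 2.3.3 were used. Intervals and floors cover counting error only. Joint rows and names with a capital letter, such as snR39B with 19.2 ± 6.08 normalised counts, were outside the naming rule.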

Additional observations from a re-analysis of the deposited data

Results flagged for a closer look

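Among 37 sets of 10 strain values, 8 had an end value whose gap to its neighbour exceeded 0.466 of the whole range, which chance gives in about 1 of 20 sets. That rate does not hold for members named for a large spread or a low p, such as snR3, snR40, snR84, snR37, snR30 and snR81. The sets share libraries and snR37 enters as a sum and as an exon row, so that they are not independent. In the strain with 208 repeats snR3 had 364, against 232 in the next highest strain, and snR40 had 367, against 209. snR45 had 158 there, against 120 in the next, and snR81 had 57.9, against 40.1. snR37 was lowest there with 427 normalised counts in both its sum and its exon row, against 550 and 545 in the next lowest. The exon row of snR84 had 107 in the strain with 129 repeats, against 73.6 in the next. The gene row of snR30 had 33.3 in the strain with 237 repeats, against 16.7 in the next.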

How the results depend on the processing

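No snoRNA row, host gene or biogenesis gene was called under any of 25 settings of the slope fit. Over all features, 1 call became 2 with pseudocount 5, 4 with no filter beyond 1 read, 0 with all listed reads as library size, 0 with strain series as a covariate, 3 with edgeR and 2 with DESeq2, and 0 to 2 when 1 strain was left out. The slope of snR191 was 0.24, of snR55 -0.29 and of snR81 -0.11 with strain series as a covariate, of snR30 -0.0090 without the strain with 237 repeats (up to 0.62 without another strain) and of snR81 -0.0186 without that with 208. The log2 ratio of gene over exon rows was -3.79 as a median over snoRNAs and, in an alternative chosen after seeing the data, -6.24 without snR190 and snR85. The snoRNA share was 0.476% with exon rows left out and 0.144% of all reads, rDNA included. The log2 ratio of box C/D over box H/ACA was 0.0055 with exon rows left out and -0.86 without the most abundant member of each family. The cause of these shifts was not tested beyond what each setting leaves out. With 1 strain left out, the gene over exon ratio ranged from -4.93 to -4.79, the share from 2.39% to 2.46%, the family ratio from -0.16 to -0.13 and the median SD of all 44 rows from 0.288 to 0.330, against 0.314. For the 37 rows with a mean of at least 20 reads the median SD was 0.298, and 0.254 without the strain with 208 repeats. In settings chosen after seeing the data, r with length in the strain with 208 repeats ranged from -0.77 to -0.69, and the median deviation there was 0.29 with reads outside the rDNA as library size, against 0.40. No paired analysis was possible because each strain has 1 total RNA library and the labels give no replicate numbers. Depth limits members under 20 reads, most of them short box C/D snoRNAs.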
